A study of Mus musculus with 8 samples.

Results

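Dusp4, Dusp5, Dusp6, Etv1, Etv4, Etv5 and Phlda1 are genes whose transcription follows the activity of the ERK kinases. These 7 genes were chosen by symbol among the 56980 gene IDs of the deposited count table, and all 7 passed the filter on low counts. RNA was measured in 8 libraries of wild-type C57BL/6 mouse oligodendrocyte progenitors, immunopanned for PDGFRα from the cortex at postnatal day 6 to 8. High glucose (HG) cultures were held at 25 mM glucose, and low glucose (LG) cultures were lowered by steps to 12.5, 5 and 2.5 mM over days 1 to 3, and both were harvested on day 5. Cells of both groups were first expanded with 20 ng/mL bFGF and 10 ng/mL PDGF-AA, and only PDGF-AA was kept, in HG and LG alike. The activity of ERK itself was not measured here. Each group held 4 libraries, numbered 1 to 4 in both groups. Numbers 1 and 2 carry the same preparation code, so n = 4 counts libraries from 3 preparations.

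In progenitors of this lineage PDGF binds its receptor PDGFRα and signals through RAS, RAF and MEK to ERK, a route known to sustain their division. Active ERK induces its own brakes: dual-specificity phosphatases, of the DUSP family, remove the phosphates that activate MAP kinases, with DUSP6 acting on ERK in the cytoplasm and DUSP4 and DUSP5 in the nucleus. ETV1, ETV4 and ETV5 form the PEA3 group of ETS transcription factors, which carry growth factor signals to target genes, and the repressor Capicua (encoded by Cic) holds several of these genes down until ERK inactivates it. PHLDA1, a protein with a pleckstrin homology-like domain, is used with several of these genes as a transcript readout of MEK and ERK activity.

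RefSeq promoters on GRCm38.p6 were at hand for 4 of the 7 genes, and those of Dusp6, Dusp5 and Etv5 are shown because they hold the letters of different signal-dependent motifs. Capitals mark a match on either strand to the CIC octamer (TGAATGAA, TCAATGAA, TGAATGGA or TCAATGGA), the ETS site GGAAGT, the CArG box of the serum response factor, the AP-1 site TGANTCA or the cAMP response element TGACGTCA. Each sequence begins 250 bases before the RefSeq start and is written 5′ to 3′ along the gene's strand. The Dusp6 promoter (chr10:99262981-99263240, plus strand), the Dusp5 promoter (chr19:53528895-53529124, plus strand) and the second Etv5 promoter (chr16:22438359-22438618, minus strand) read as follows.
Dusp6: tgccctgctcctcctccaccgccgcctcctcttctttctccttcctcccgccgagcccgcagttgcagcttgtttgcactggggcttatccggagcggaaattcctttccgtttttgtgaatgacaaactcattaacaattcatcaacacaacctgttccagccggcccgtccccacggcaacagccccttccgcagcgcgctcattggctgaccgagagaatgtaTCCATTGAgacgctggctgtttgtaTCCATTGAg
Dusp5: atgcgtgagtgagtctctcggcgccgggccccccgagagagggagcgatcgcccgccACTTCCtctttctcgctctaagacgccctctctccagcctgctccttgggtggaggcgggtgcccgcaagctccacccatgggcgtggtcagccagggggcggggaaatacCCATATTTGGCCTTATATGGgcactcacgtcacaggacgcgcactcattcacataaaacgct
Etv5: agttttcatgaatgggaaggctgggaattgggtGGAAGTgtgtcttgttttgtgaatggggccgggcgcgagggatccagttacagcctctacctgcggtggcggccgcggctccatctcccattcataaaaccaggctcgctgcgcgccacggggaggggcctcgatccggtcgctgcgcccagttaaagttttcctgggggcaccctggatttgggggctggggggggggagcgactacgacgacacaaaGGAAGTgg
The Dusp6 promoter held a pair of CIC octamers on the minus strand, at -24 to -17 and at 2 to 9 from the start. Of 32851 promoter windows of 300 bases, 3.84% held a CIC octamer. The Dusp5 promoter held a pair of adjacent CArG boxes, at -82 to -73 and -72 to -63, a motif present in 1.63% of the windows, and 1 ETS site on the minus strand at -193. The second Etv5 promoter held ETS sites at -217 and 3, and ETS sites were present in 23.8% of the windows. The first Etv1 promoter held an ETS site at -3, and the second Etv1 promoter and the first Etv5 promoter held none of the motifs. No AP-1 site, which 7.81% of the windows held, and no cAMP response element, held by 1.79%, was found in the 6 promoters of these 4 genes. The motifs were chosen with these sequences in view, and a match is a run of letters and not a measured binding site.

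Total counts ran from 50864130 to 65733928 per library. The labels state fewer read pairs per sample than these totals, and how mates were counted is not given in the sources used here. Along the first principal component, with 47.1% of the variance, the libraries fell apart by number, with 1 and 2 of both groups on one side and 3 and 4 on the other. The summed level of 7 progenitor markers, Pdgfra, Olig1 and Olig2 among them, was 8378 to 11624 CPM (counts scaled to library size) in HG and 8771 to 11773 CPM in LG. The 8 microglial markers summed to at most 0.613 CPM, each had a mean under 1 CPM, and Cx3cr1 was at 0 in all libraries. The 8 endothelial and mural markers summed to 2.92 to 10.4 CPM, with Cdh5 and Cldn5 at 0 throughout. Astrocyte markers, 8 in all, summed to 1742 to 1922 CPM in libraries 1 and 2 and to 662 to 833 CPM in libraries 3 and 4, across both groups. Neuron markers, 9 in all, summed to 901 to 1063 CPM in HG and to 880 to 942 CPM in LG, and 1 of them, Map2, made up 817 to 1011 CPM of this, while Stmn2, Slc17a7 and Gad2 were at no more than 0.338 CPM in any library. The 8 markers of myelin and mature oligodendrocytes summed to 524, 526, 581 and 743 CPM in HG libraries 1 to 4 and to 605, 537, 776 and 839 CPM in LG libraries 1 to 4, higher in LG in each pair. Most of this sum was Cnp, at 303 to 620 CPM in HG and 336 to 676 CPM in LG. Map2, Stmn2, Slc17a7, Gad2 and Cnp were named after their values were seen.

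None of the 7 genes passed the test across all genes, either without a block or with the replicate number as a block. Dusp6 was the only one of them whose LG libraries all lay below its HG libraries. Its point estimate was 18.5% lower in LG in the fit that pairs libraries by number, and those of the other genes ran from 12.6% lower for Dusp4 to 1.28% higher for Phlda1. In edgeR's quasi-likelihood test with no block, 0 of the 7 genes and 0% of the 18905 tested genes passed a Benjamini-Hochberg adjusted p of 0.05. At an unadjusted p under 0.05 in that fit 1 of the 7, Dusp6, was reached, against 3.94% of all tested genes. DESeq2 in the same design called 4 genes and limma-voom 0, none of them among the 7. With the replicate number as a block 0 of the 7 passed, against 0.418% of all genes, and 1 of the 7, again Dusp6, had an unadjusted p under 0.05, against 13.4% of all genes. Of the 7 genes, 6 had a negative log2 fold change without the block, against 48.6% of all genes, and their median was -0.10, against 0.0051 over all genes. With the block 6 were negative too, against 49.6% of all genes, and the median was -0.11. Over 18424 genes, which are not independent replicates, the fold changes of that fit followed GC content, at a Spearman correlation of 0.356. With offsets for GC content and transcript length added it was 0.0027. The offsets were fitted on these same libraries to remove this trend, so the drop is no check of them. With the block and these offsets the median of the 7 genes was -0.20, against -0.0046 over all genes, and 6 were negative, against 51.5% of all genes. In that fit 1 of the 7, Dusp6, passed, and 4 (Dusp4, Dusp6, Etv4 and Etv5) had an unadjusted p under 0.05, against 13.3% of all genes.

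**Figure D1:**
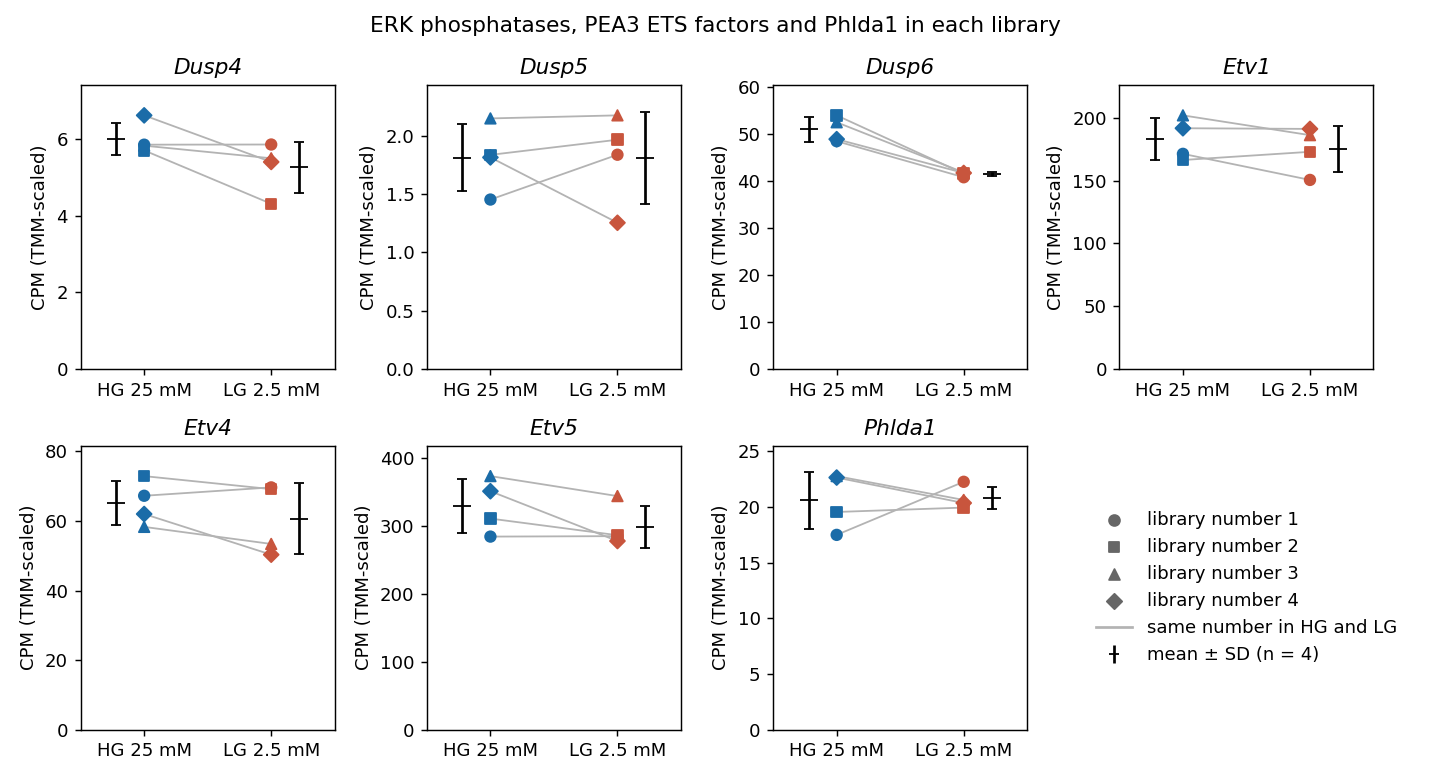
CPM scaled by TMM (y axis, from 0) of the 7 genes in HG and LG (x axis), with 1 symbol per library number, grey lines joining equal numbers and black bars for the mean and SD (n = 4). Only the Dusp6 panel has all 4 LG libraries, at 40.8 to 41.8 CPM, below all 4 HG libraries, at 48.4 to 53.9 CPM.

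Dusp6 (ENSMUSG00000019960, GRCm38 chromosome 10, 99263231 to 99267489, plus strand) encodes the phosphatase that is selective for ERK. Its level was 48.4, 53.9, 52.5 and 48.9 CPM in HG libraries 1 to 4 and 40.8, 41.5, 41.8 and 41.7 CPM in LG libraries 1 to 4. The groups did not overlap, and the 4 LG libraries lay closer together than the 4 HG libraries. The whole of one group lay below the other in the direction of lower LG for 1.82% of all tested genes. Dusp6 averaged 50.9 ± 2.70 CPM in HG (SD, n = 4) and 41.4 ± 0.460 CPM in LG (SD, n = 4), and the log2 differences in pairs 1 to 4 were -0.25, -0.38, -0.33 and -0.23. LG was thus the lower library in 4 of 4 pairs, which held for 11% of all genes. The log2 fold change was -0.30 without the block (SE 0.0663, edgeR unadjusted p = 0.00119, adjusted p = 0.99985) and -0.30 with it (SE 0.0598, 95% interval -0.43 to -0.16, edgeR adjusted p = 0.0640). Dusp6 ranked at place 130 of 18905 by p in the fit with the block.

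Dusp6 passed when the block was joined with offsets for GC content and transcript length (log2 fold change -0.32, edgeR adjusted p = 0.0158), where 1.36% of all genes passed. It also passed by DESeq2 with the block (adjusted p = 0.00733), a setting in which 474 of the 18905 tested genes passed. With the preparation in place of the number as the block the edgeR adjusted p was 0.199, and it was 0.161 with the counts summed per preparation. It was negative in all 25 settings, from -0.32 to -0.25, and passed in these 2. Beside it, the summed level of 14 cell cycle genes was lower in LG in each pair as well. It went from 3516 to 2701 CPM in pair 1 and from 2845 to 2338 CPM in pair 2. In pair 3 it went from 2558 to 2182 CPM and in pair 4 from 2578 to 2041 CPM. Within these sums Mki67 alone went from 901 to 421 CPM in pair 1 and from 441 to 285 CPM in pair 2. In pairs 3 and 4 Mki67 went from 379 to 254 CPM and from 334 to 191 CPM. The summed markers of myelin and mature oligodendrocytes given above were higher in each pair. The part of the cell cycle genes or of these markers in the Dusp6 value was not tested. In RNA from whole cultures, fewer cells of a type and less RNA per cell cannot be told apart.

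Dusp4 (ENSMUSG00000031530, chromosome 8, 34807297 to 34819894, plus strand), a phosphatase of the nucleus, was scarce. Its levels were 5.85, 5.70, 5.83 and 6.62 CPM in HG libraries 1 to 4 and 5.86, 4.31, 5.50 and 5.40 CPM in LG libraries 1 to 4. LG library 1 lay inside the HG range, so the groups overlapped, and LG library 2 was the lowest. The log2 difference was 0.0011 in pair 1 and between -0.40 and -0.083 in the other pairs. With the block the log2 fold change was -0.19 (95% interval -0.44 to 0.047, edgeR adjusted p = 0.473), an interval that includes both no difference and a larger decrease than that of Dusp6. With the offsets and the block it was -0.28 (95% interval -0.50 to -0.065, edgeR unadjusted p = 0.0153, adjusted p = 0.228), an interval below 0 for a gene that did not pass. Without LG library 2 the value without the block was -0.10, against -0.19 with all libraries.

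Dusp5 (ENSMUSG00000034765, chromosome 19, 53529109 to 53542431, plus strand), the nuclear ERK phosphatase whose promoter holds the CArG boxes shown above, had the fewest counts of the 7, at 79 to 131 per library. It stood at 1.45, 1.84, 2.15 and 1.82 CPM in HG libraries 1 to 4 and at 1.84, 1.97, 2.18 and 1.25 CPM in LG libraries 1 to 4. Pairs moved in opposite directions, from 0.32 in pair 1 to -0.50 in pair 4, and the groups overlapped over most of their range. The log2 fold change with the block was -0.020 (95% interval -0.43 to 0.39, edgeR adjusted p = 0.975), which includes a difference of the size seen in Dusp6. Without pair 4 the sign turned, to 0.15. An antisense gene, AC137853.2, shares 547 bases with the Dusp5 exons (22.1% of them) and had 0 to 4 counts per library.

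Etv5 (ENSMUSG00000013089, chromosome 16, 22381309 to 22439719, minus strand) had the highest level per length of the 7, at 80.5 CPM per kilobase of exon in HG. HG libraries 1 to 4 were at 284, 311, 374 and 351 CPM, and LG libraries 1 to 4 at 285, 287, 344 and 278 CPM. LG library 4 lay just below the lowest HG library, LG libraries 1 and 2 lay between HG libraries 1 and 2, and LG library 3 stood above both of these. Pair 1 differed by 0.0034, pairs 2 and 3 by -0.12 each and pair 4 by -0.34 on the log2 scale. The log2 fold change was -0.15 without the block and -0.14 with it (SE 0.0667, 95% interval -0.29 to 0.0038, edgeR adjusted p = 0.384), and -0.20 with block and offsets together (95% interval -0.31 to -0.088, edgeR adjusted p = 0.0893). It was negative in all 25 settings and passed in 0. Without pair 4 the value with the block was -0.078.

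Etv4 (ENSMUSG00000017724, chromosome 11, 101769742 to 101785371, minus strand) followed the library number more than the glucose level. Its values were 67.2, 72.9, 58.3 and 62.0 CPM in HG libraries 1 to 4 and 69.6, 69.2, 53.4 and 50.3 CPM in LG libraries 1 to 4. Libraries 1 and 2 were the highest of both groups, and LG libraries 1 and 2 exceeded HG libraries 3 and 4. The log2 fold change with the block was -0.11 (95% interval -0.26 to 0.034, edgeR adjusted p = 0.491). With the offsets and the block it was -0.23 and missed the threshold (95% interval -0.34 to -0.12, edgeR adjusted p = 0.0520). The pair differences were 0.051, -0.076, -0.13 and -0.30, and without pair 4 the value with the block was -0.051.

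Etv1 (ENSMUSG00000004151, chromosome 12, 38779380 to 38870484, plus strand) had the smallest difference of the 3 PEA3 genes. It was at 171, 166, 202 and 192 CPM in HG libraries 1 to 4 and at 151, 173, 186 and 191 CPM in LG libraries 1 to 4. Libraries 3 and 4 were the highest of both groups, the reverse of Etv4, and the groups overlapped. The log2 fold change was -0.063 with the block (95% interval -0.20 to 0.070, edgeR adjusted p = 0.689) and turned to 0.053 with the offsets and the block (adjusted p = 0.724 by edgeR). Its longest transcript had the lowest GC content of the 7, at 39.8%, against 49.0% to 58.9% for the others.

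Phlda1 (ENSMUSG00000020205, chromosome 10, 111506286 to 111508645, plus strand) showed no common direction. HG libraries 1 to 4 were at 17.5, 19.6, 22.8 and 22.7 CPM, and LG libraries 1 to 4 at 22.3, 20.0, 20.6 and 20.4 CPM. The LG libraries lay inside the HG range, and pairs 1 and 2 were higher in LG (0.35 and 0.029) while pairs 3 and 4 were lower (-0.14 and -0.15). The log2 fold change with the block was 0.018 (95% interval -0.18 to 0.22, edgeR adjusted p = 0.951), and -0.095 with the offsets as well. The interval without the offsets lay above the Dusp6 point estimate. Whether the changes of any 2 of the 7 genes differ from each other was not tested. The antisense gene Gm28592 shares 727 bases (33.0%) with the Phlda1 exons and had 0 counts in all libraries.

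**Figure D2:**
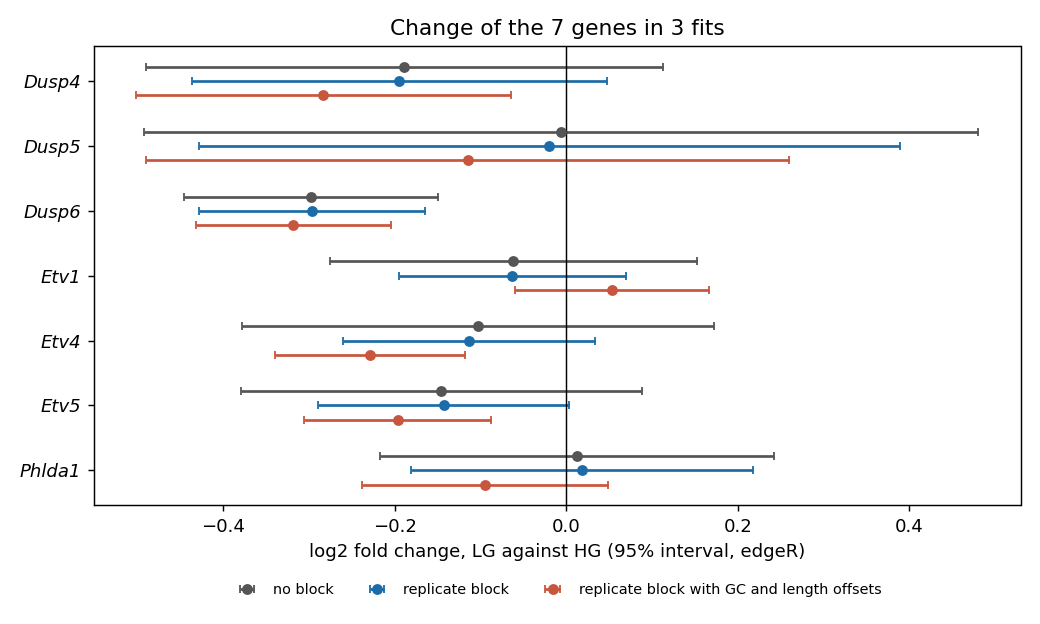
Log2 fold change of LG against HG (x axis) for each of the 7 genes (y axis) with 95% intervals from edgeR, without a block (grey), with the replicate block (blue) and with the block and GC and length offsets (red). The Dusp6 intervals lie below 0 in the 3 fits, those of Dusp4, Etv4 and Etv5 lie below 0 with the block and offsets, and the offsets move Etv1 from -0.063 to 0.053 and Phlda1 from 0.018 to -0.095.

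The libraries' number and the glucose level took unlike shares of the variance of log2 CPM in the 7 genes, given here as a description. The number has more levels than the group, so on average it takes the larger share even where neither has an effect. The shares of number and group are therefore not on an equal footing. For Dusp6 the group took 90.6% and the number 5.74%. In Dusp4 these shares were 35.1% and 40.8%, and in Etv5 21.0% and 63.4%. The number took 80.4% in Etv1 and 78.3% in Etv4, where the group took 6.02% and 9.67%. For Dusp5 the group took 0.142% and for Phlda1 0.70%. In Phlda1 70.8% was left to neither, since its pairs moved in opposite directions. The number also separates the summed astrocyte markers given above, and their part in the values of Etv1, Etv4 and Etv5 was not tested.

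**Figure D3:**
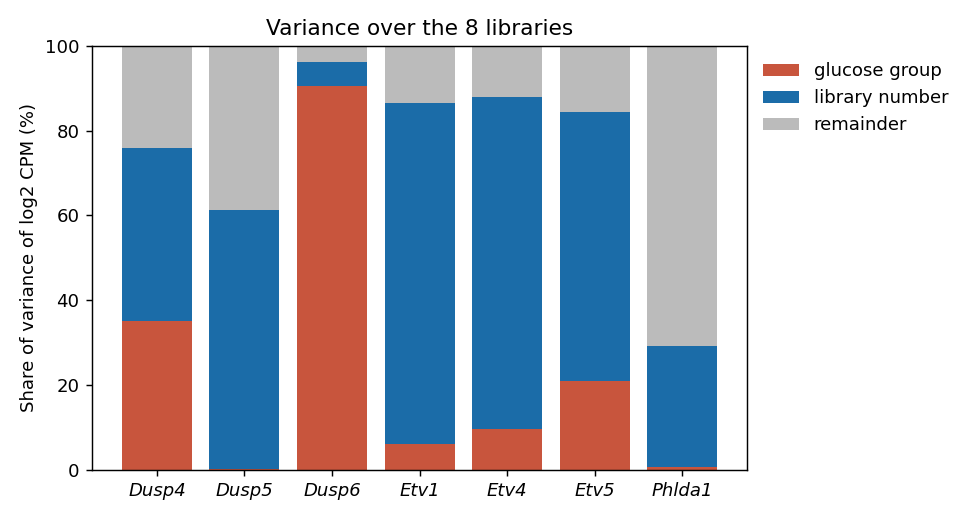
Share of the variance of log2 CPM over the 8 libraries (y axis, percent) taken by glucose group (red), library number (blue) and the remainder (grey) for each gene (x axis). The red part is 90.6% in Dusp6 and at most 35.1% in the other 6 genes.

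Across the 8 libraries the 7 genes did not form one pattern. Pearson correlations of log2 CPM between pairs of them, which share their libraries and depth, ran from -0.73 between Etv1 and Etv4 to 0.68 between Dusp5 and Etv5. Dusp6 correlated with Etv5 at 0.51, with Dusp4 at 0.48, with Etv4 at 0.29, with Etv1 at 0.26, with Dusp5 at 0.14 and with Phlda1 at -0.040. The 3 PEA3 genes were split, with Etv1 and Etv5 at 0.64 and Etv4 and Etv5 at -0.27. Per length, in CPM per kilobase of joined exons, Etv5 led in HG at 80.5 ± 9.74 (SD, n = 4), ahead of Etv4 at 21.0 ± 2.05, Dusp6 at 16.3 ± 0.861, Etv1 at 13.8 ± 1.26, Phlda1 at 9.35 ± 1.16, Dusp4 at 2.19 ± 0.152 and Dusp5 at 0.734 ± 0.115. Neighbours in this order did not overlap in HG. In LG Dusp6, at 13.0 to 13.3 CPM per kilobase, overlapped with Etv1, at 11.3 to 14.4. The place of Etv1 rests on the length used: divided by its longest transcript, of 6576 bases, its HG mean was 27.8, against 27.2 for Etv4 and 18.2 for Dusp6.

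Other genes of the pathway were read from the same fits. Sprouty and Spred proteins, which block the step from receptor to RAF, are ERK feedback genes like the DUSPs. With the block the 6 tested members had a median of -0.17, against 0.0015 over all genes. Negative values were found in 6 of 6, against 49.6% of all genes. Of the 6, 1 passed with the block, where 0.307% of all genes passed as lower. With the offsets as well 2 passed as lower, against 1.06% of all genes. In 4 of the 6, LG was lower in 4 of 4 pairs, against 11% of all genes. Spry4 was at 98.1, 107, 113 and 113 CPM in HG libraries 1 to 4. In LG libraries 1 to 4 it was at 79.5, 71.8, 89.2 and 89.2 CPM. The groups did not overlap, with LG lower, as for 1.82% of all genes. Spry4 fell by 0.39 on the log2 scale with the block (SE 0.062, edgeR adjusted p = 0.0353), next to 0.30 lower for Dusp6. Without the block its adjusted p was 0.99985 by edgeR. Spry2 was at -0.20 with the block (edgeR adjusted p = 0.166) and was lower in 4 of 4 pairs, as were 11% of all genes.

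The 7 other MAP kinase phosphatases did not share a direction. With the block 3 of them were negative and 4 positive, where 49.6% of all genes were negative. The median was 0.018, and 0 passed, against 0.418% of all genes. Dusp16, which acts on JNK and p38, was at -0.14 (edgeR adjusted p = 0.404). Dusp9 encodes an ERK phosphatase, and its HG libraries lay at 0.239 to 1.22 CPM and its LG libraries at 0.322 to 1.59 CPM. It was at 0.59 (adjusted p = 0.342 by edgeR) and higher in LG in 4 of 4 pairs. The share of all genes higher in LG in 4 of 4 pairs was not counted. The reverse, lower in LG in 4 of 4 pairs, held for 11% of all genes. Dusp1, a nuclear phosphatase, was not named by the rule and was chosen after its values were seen, at -0.12 (edgeR adjusted p = 0.578).

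The remaining ETS genes did not share a direction, with 8 of 13 tested members negative with the block, against 49.6% of all genes. Their median was -0.024, and 0 passed, against 0.418% of all genes. Their values ran from -0.62 for Erg, which had 3 to 32 counts per library, to 0.14 for Elk1. Elk3 was at -0.21 (edgeR adjusted p = 0.303), and Elk1 encodes a partner of the serum response factor (adjusted p = 0.384 by edgeR). Of 7 genes that regulate PEA3 factors, 3 were negative and 0 passed, against the same shares of all genes, with a median of 0.031. Trib2, a pseudokinase gene, was at -0.12 (edgeR adjusted p = 0.394), and Cop1, a ubiquitin ligase that targets PEA3 proteins, at -0.11 (edgeR adjusted p = 0.449). Cic, chosen for its role after its values were seen, was at 0.079 (edgeR adjusted p = 0.642), and averaged 154 ± 20.4 CPM in HG (SD, n = 4) and 162 ± 13.8 CPM in LG (SD, n = 4).

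The cascade upstream of ERK, from the PDGF receptor to the RSK kinases, had a median of 0.0079 with the block. Of its 23 members 9 were negative, against 49.6% of all genes, and 0 passed, against 0.418%. Rasa1 and Nf1, which switch RAS off, were at -0.22 and -0.12 (adjusted p = 0.369 and 0.431 by edgeR with the block). Pdgfra, chosen for its role after its values were seen, was at -0.088 (edgeR adjusted p = 0.614).

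Immediate early genes, the first transcripts that ERK and other signals induce, had a median of -0.093 with the block. Of 16 tested members 12 were negative, against 49.6% of all genes, and 0 passed, against 0.418%. Egr1, a zinc finger factor, was at 31.7, 37.6, 28.2 and 27.4 CPM in HG libraries 1 to 4. In LG libraries 1 to 4 it was at 26.3, 23.5, 24.0 and 25.6 CPM. The groups did not overlap, with LG lower, as for 1.82% of all genes. The log2 fold change of Egr1 was -0.32 (edgeR adjusted p = 0.167 with the block). It was -0.42 when offsets were added, where it passed (adjusted p = 0.0492 by edgeR), as did 1.36% of all genes. Ier3 was at -0.35 (adjusted p = 0.306 by edgeR with the block).

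A published 10-gene transcript signature of MEK and ERK activity holds 5 of the 7 genes (Phlda1, Dusp4, Dusp6, Etv4 and Etv5) beside Spry2, Spry4, Ccnd1, Epha2 and Epha4, so it is not independent of them. Of its 10 genes 8 were negative with the block, against 49.6% of all genes, with a median of -0.19, and 1, Spry4, passed, against 0.418% of all genes. With the offsets as well 3 passed as lower, against 1.06% of all genes, and 1 as higher, against 0.296%. Ccnd1 and Epha4 were named after their values were seen. Ccnd1, which encodes cyclin D1, stood at 592 ± 23.3 CPM in HG (SD, n = 4) and at 479 ± 50.3 CPM in LG (SD, n = 4). Its groups did not overlap, with LG lower, as for 1.82% of all genes. The log2 fold change of Ccnd1 was -0.31 (edgeR adjusted p = 0.0747 with the block and 0.00866 when offsets were added). Epha4, an ephrin receptor gene, went the other way, from 24.0 ± 2.74 to 30.7 ± 4.40 CPM (SD, n = 4), with a log2 fold change of 0.35 (adjusted p = 0.0747 with the block and 0.0158 when offsets were added, both by edgeR). It was higher in LG in 4 of 4 pairs, a share not counted over all genes, and its groups overlapped. Phlda3, the tested relative of Phlda1, was at -0.11 (edgeR adjusted p = 0.491).

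All 14 cell cycle genes were negative with the block, against 49.6% of all genes, with a median of -0.22, and 2 passed as lower, against 0.307% of all genes. Mki67, the proliferation marker, fell by 0.78 on the log2 scale (edgeR adjusted p = 0.00777) and Cenpe, a mitotic kinesin gene, by 0.79 (edgeR adjusted p = 0.0383), both with the block. Among the markers of other states and cell types, 1 gene passed with the block, where 0.111% of all genes passed as higher: Myrf, the driver of myelin genes, rose by 0.60 (edgeR adjusted p = 0.00871). The 7 tested genes of its list had a median of 0.14, and 5 were positive. Of the 7 progenitor genes 5 were positive, with a median of 0.059 and a range from -0.17 to 0.38, and of the 8 astrocyte genes 5 were positive, with a median of 0.096 and a range from -0.091 to 0.34. Gpr17 and Sox10, of the progenitor list, were at 0.38 and 0.22 (edgeR adjusted p = 0.0523 and 0.189), while 2 genes of that list were negative, Pdgfra at -0.088 among them. The astrocyte genes Aldh1l1 and Gfap were at 0.34 and 0.23 (edgeR adjusted p = 0.102 and 0.481). The neuron genes Tubb3 and Snap25 were at 0.25 and -0.19. The microglial gene P2ry12 was at -0.53 and the mural genes Rgs5 and Pdgfrb at -1.05 and 0.44. None of these 5 passed by edgeR with the block. P2ry12 had only 7 to 24 counts per library and Rgs5 only 5 to 19. Pdgfrb had 170 to 327 counts in libraries 1 and 2 and 9 to 12 in libraries 3 and 4.

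**Figure D4:**
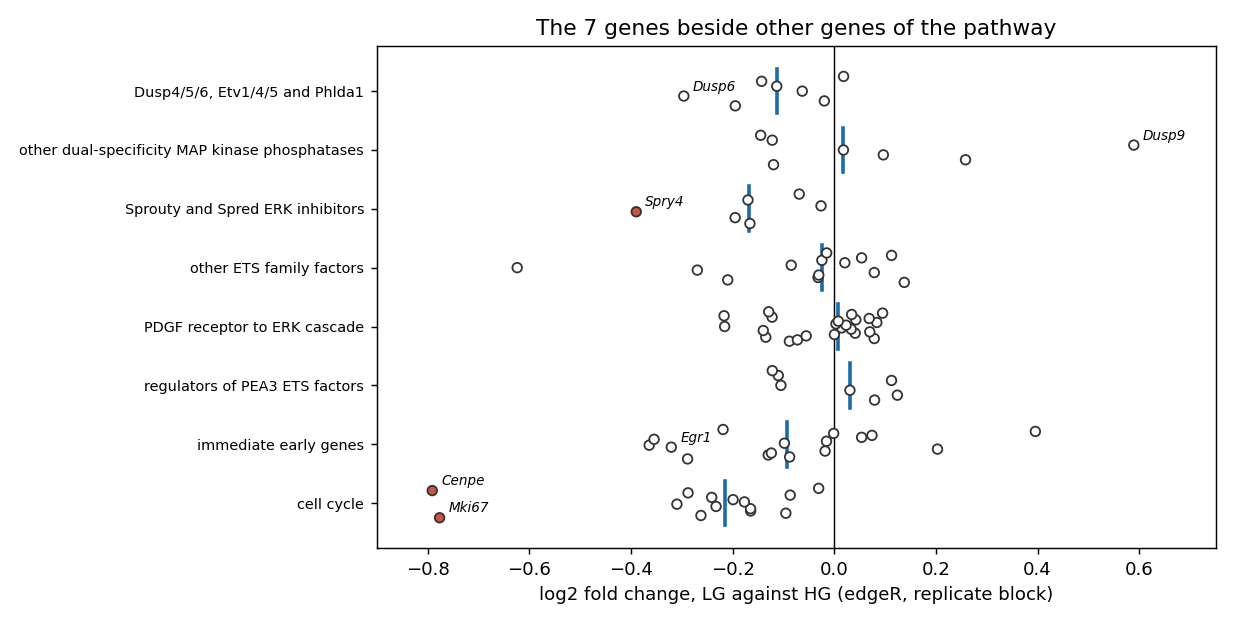
Log2 fold change of LG against HG with the replicate block (x axis) for the tested genes of each list (y axis), with filled points where the edgeR adjusted p was under 0.05 and a blue bar at the list median. The medians are -0.17 for Sprouty and Spred genes, -0.22 for cell cycle genes and -0.11 for the 7 genes, and the cascade upstream of ERK lies at 0.0079.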

How the data were processed

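Expression was measured by mRNA sequencing (100 ng RNA, paired reads of 150 bp). The authors deposited raw counts per Ensembl gene ID, whole numbers without normalisation. The submitters' processing notes name CASAVA 1.8.2, STAR, featureCounts, DESeq2 and mm10 without saying what each was used for. Annotation release, strand setting and handling of multiple matches: not given in the sources used here. Symbols came from GENCODE M21 (GRCm38) and matched 52073 of 56980 IDs.

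The fits used edgeR 4.0.16 in R 4.3.3: filterByExpr left 18905 genes, TMM set the scale, and the difference of LG from HG was tested by quasi-likelihood with robust dispersions, adjusted over all genes by Benjamini-Hochberg at 0.05. An SE is the absolute log2 fold change over the root of F. Alternatives were the replicate block, GC and length offsets (mgcv 1.9.3, GC known for 97.5% of tested genes), DESeq2 1.42.0, limma-voom (limma 3.58.1), other scaling and filters, and left-out libraries or pairs. CPM values use the TMM factors, log2 CPM a prior count of 2 and pair differences an added 0.1 CPM. Scripts were tested on simulated data.

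Equal numbers were taken as pairs: deviations from the group means correlated at 0.448 to 0.625 between equal numbers and at most at 0.419 between others, and numbers 1 and 2 share a preparation code. Replicates differed by a chi-square per degree of freedom of at least 17.2. Preparations are called independent per the labels' protocols, yet numbers 1 and 2 share a code, so p-values may partly measure technical spread.

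The genes, lists and tests were chosen with earlier results of these data known. Named were the 7 genes, from each list the genes that passed and the 2 with the smallest p with the block, and the 5 genes most like the mean z-score of the 7; 1 gene so named is not reported here.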

Additional observations from a re-analysis of the deposited data

Results flagged for a closer look

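In 84 groups of 4 libraries, for the 7 genes and the other genes named, a single library stood far from its group in 3, where chance at 1 in 20 gives 4.2. Etv5 was highest among the LG libraries in number 3, at 8.427 log2 CPM against 8.119 to 8.163 in the others. Ccnd1 was lowest among the HG libraries in number 2, at 9.121 log2 CPM against 9.227 to 9.249. Cic was lowest among the HG libraries in number 1, at 6.954 log2 CPM against 7.331 to 7.398.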

How the results depend on the processing

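Genes passing numbered 0 without the block, also without any 1 library (0 to 0), with RLE or total-count scaling, no filter, offsets alone, limma-voom or thresholds of 0.01 and 0.1. They numbered 4 by DESeq2, 79 with the replicate block, 1 with the preparation block, 17 with sums per preparation, 257 with offsets plus the replicate block, 474 by DESeq2 with the block and 65 by limma-voom with it. With the block, 5 passed at 0.01, 243 at 0.1, and 0 to 148 without 1 pair (0 without pair 2, 6 without pair 1, 39 without pair 3, 148 without pair 4). Of the 7 genes, 1 (Dusp6) passed with the offsets and the block, by DESeq2 with the block and at 0.1 with the block, and 0 in the others. Without 1 pair the adjusted p of Dusp6 by edgeR with the block ran from 0.0522 to 0.362. Dusp4, Dusp6, Etv4 and Etv5 were negative in all 25 settings. Etv4 without the block moved from -0.10 to -0.023 without LG library 4. Dusp5 (-0.0061) turned to 0.00060 with RLE, and ran from -0.11 to 0.14 without 1 library and from -0.13 to 0.15 without 1 pair. Etv1 (-0.062) turned to 0.050 with the offsets and 0.053 with the block as well, and ran from -0.11 to 0.0044 without 1 library. Phlda1 (0.013) turned to -0.029 with sums per preparation, -0.094 with the offsets and -0.095 with the block as well, and ran from -0.055 to 0.064 without 1 library and from -0.089 to 0.076 without 1 pair. For these turns the cause was not tested. The low counts of Dusp5 limit its precision.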

Other observations

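By library number, the 7 genes differed as follows between libraries 1 and 2, which share a preparation code, and libraries 3 and 4, over both groups. Etv4 was higher in 1 and 2 by 0.32 on the log2 scale, at percentile 84.4 of all tested genes. Etv1 and Etv5 were lower there, at -0.22 and -0.20, which are percentiles 21.2 and 24.1. Dusp6 stood at -0.0034, Dusp5 at -0.035, Dusp4 at -0.11 and Phlda1 at -0.13.

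Of 14406 other genes with a mean of at least 1 CPM, the 5 whose log2 CPM followed the mean z-score of the 7 genes most closely over the 8 libraries were Sgf29 (Pearson correlation 0.956), Apln (0.941), Papln (0.940), Ptpn9 (0.890) and Mxd3 (0.888). None of them passed with the block (edgeR adjusted p from 0.184 for Papln to 0.642 for Sgf29). The mean z-score was highest in HG library 3, at 0.85, and lowest in LG library 4, at -0.72, and the 8 points share their libraries and depth. Such correlations can come from choosing the highest of 14406 over 8 points, and the 7 genes did not form one pattern themselves.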
